A study of Mus musculus with 4 samples.

Results

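The genes described here make, carry, destroy or sense prostaglandin E2 (PGE2). They were chosen by name, with earlier results of these data known. The list held the cyclooxygenases Ptgs1 and Ptgs2, the PGE2 synthases Ptges and Ptges2, the carrier Slco2a1 and the degrading enzyme Hpgd. It also held the EP receptor genes Ptger1, Ptger2, Ptger3 and Ptger4. Of these 10 genes, 9 had at least 1 probe on the arrays, among 17016 genes that could be named, and 12 probes read them. No probe was matched to Ptger1, which was not analysed here. Of the 9 genes, 7 were bright enough to be tested.

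PGE2 is a lipid mediator made from arachidonic acid. A cyclooxygenase turns the fatty acid into an unstable intermediate, and a PGE synthase turns that intermediate into PGE2, which acts on cells through the EP receptors and is taken up by the carrier SLCO2A1 to be oxidised by HPGD inside the cell. In the stomach, PGE2 from cyclooxygenase-1 takes part in protecting the mucosa, while cyclooxygenase-2 is induced in inflammation and in many gastric tumours.

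RNA came from glandular stomach tumours of K19-Wnt1/C2mE mice aged 30 weeks, digested with enzymes for 3 h before sorting in every sample, and was hybridised to 4 one-colour arrays. The first group was cells that lacked lineage markers (Lin-) and carried CD44, a surface receptor for hyaluronan (2 arrays). It was set against Lin- CD44- cells of the same kind of tumour (2 arrays). Both groups carry every transgene, so neither is a wild-type control: in this strain the keratin 19 promoter, which is active in epithelium, drives Wnt1, Ptgs2 and Ptges. Whether the array probes read the transcripts of the transgenes was not tested. The lineage markers used, the number of mice behind each sample and any pooling of animals are not given in the sources used here, so the p-values measure only how far these samples scatter, and that scatter may be technical.

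All 4 arrays lay on 1 slide, and the first CD44+ array was the dimmest, with 53.1% of gene spots well above background against 65.6% to 69.6% on the other arrays. Levels are log2 processed signals relative to the 75th percentile of the same array, so a level of 0 is a spot at that percentile. Across 21050 genes tested with limma, 84 (0.399%) passed an adjusted p of 0.05, 5 of them higher in CD44+ cells (0.0238%) and 79 lower (0.375%). With the array median as the scale, 121 were higher and 628 lower. The median difference over all genes was 0.16, and it became 0.26 with median scaling and 0.02 with the 75th percentile of probes detected on all arrays. Cd44 itself, which checks the sort, had levels of 6.31 and 6.54 in CD44+ cells, against 4.26 and 5.11 in CD44- cells. The groups did not overlap on any of its 3 probes, but the difference of 1.74 ± 0.49 (SE) had an adjusted p of 0.199 in limma.

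Slco2a1, the PGE2 carrier, was the 1 gene of the 7 tested that passed the test, with a log2 difference of -4.18 (lower in CD44+ cells). Both cyclooxygenase genes had negative differences of similar size, -3.15 for Ptgs1 and -4.09 for Ptgs2, without passing. Ptges2, Hpgd and the EP4 receptor gene Ptger4 had differences within 0.51 of 0. Groups without overlap were seen for 5 of the 7 genes, against 39.6% of all genes tested. The groups did not overlap for 4 genes lower in CD44+ cells (Slco2a1, Ptgs1, Ptgs2 and Ptges), where 17.2% of all genes tested showed that pattern. They did not overlap for 1 gene that was higher, Ptger4, against 22.4% of all genes. The median difference of the 7 genes was -1.14, against 0.16 over all genes. An unadjusted p under 0.05 was reached by 3 of the 7, against 10.8% of all genes. Ptgs2 is among these 3 and among the genes lower without overlap. It cleared the background on only 1 CD44+ array, so it entered the test through the CD44- arrays alone. Since the genes were chosen with earlier results of these data known, the shares set beside those of all genes are a description.

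**Figure D1:**
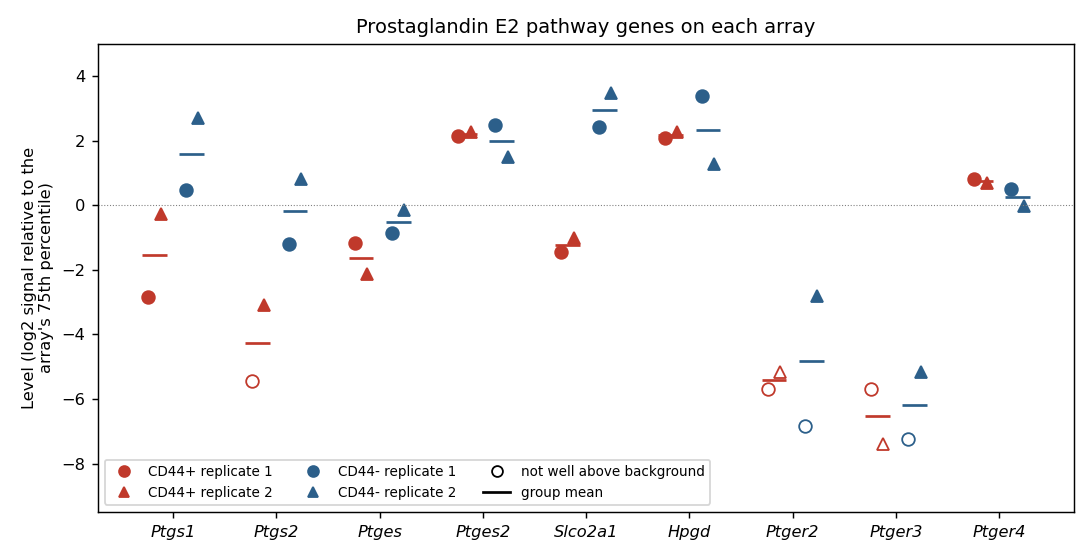
Level of each prostaglandin E2 gene on each array, as log2 signal relative to the array's 75th percentile. Red marks are CD44+ arrays and blue marks CD44- arrays, circles replicate 1 and triangles replicate 2, open marks values not well above background, and bars group means. Slco2a1 sat at -1.44 and -1.01 on the CD44+ arrays, against 2.42 and 3.49 on the CD44- arrays. Heights of different genes come from different probes and cannot be set against each other.

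The promoter windows of the genes with the 3 largest differences are printed here so that the letters around their starts can be compared. They run from 250 bases before to 30 bases after the start of the gene (the start is base 1), all on the plus strand, and come from RefSeq (GRCm38.p6): chr9:103008237-103008516 for Slco2a1, chr1:150099781-150100060 for Ptgs2 and chr2:36230176-36230455 for Ptgs1. Capitals mark a match to a motif searched on both strands.
Slco2a1: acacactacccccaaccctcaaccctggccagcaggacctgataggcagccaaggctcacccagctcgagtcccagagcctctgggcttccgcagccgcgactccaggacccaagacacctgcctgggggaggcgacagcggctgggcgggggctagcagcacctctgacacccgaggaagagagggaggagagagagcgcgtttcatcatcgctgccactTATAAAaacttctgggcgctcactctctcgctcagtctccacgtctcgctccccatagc
Ptgs2: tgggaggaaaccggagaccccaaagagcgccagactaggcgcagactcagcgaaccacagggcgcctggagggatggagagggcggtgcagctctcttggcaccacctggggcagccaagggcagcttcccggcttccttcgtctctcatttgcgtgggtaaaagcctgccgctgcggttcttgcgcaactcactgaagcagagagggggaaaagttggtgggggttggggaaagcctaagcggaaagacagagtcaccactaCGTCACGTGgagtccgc
Ptgs1: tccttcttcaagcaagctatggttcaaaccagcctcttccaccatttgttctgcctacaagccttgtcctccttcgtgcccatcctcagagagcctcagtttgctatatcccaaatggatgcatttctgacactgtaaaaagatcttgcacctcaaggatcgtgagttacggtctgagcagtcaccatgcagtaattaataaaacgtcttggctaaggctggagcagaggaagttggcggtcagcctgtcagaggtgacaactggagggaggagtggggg
The motifs searched were the TATA box (TATAAA), a core of the cAMP response element (CGTCA), the E-box (CACGTG) and a TCF/LEF motif (CTTTGA). In the Slco2a1 window TATAAA begins 29 bases before the start, and 13.6% of 32851 promoter windows of 300 bases hold these letters. In the Ptgs2 window CGTCA begins at base 14 after the start and overlaps CACGTG, which begins at base 17. These motifs stand in 20.8% and 7.15% of all windows. The Ptgs1 window holds none of the 4 motifs, and CTTTGA, found in 16.0% of all windows, was in none of the 9 windows that could be matched to these genes. Among the other genes, Ptges2 holds CACGTG beginning 77 bases before its start, and Hpgd holds TATAAA beginning at base 5. The matches describe the letters alone.

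Ptgs1 encodes cyclooxygenase-1, the form made without induction in many tissues. Its levels were -2.84 and -0.27 in CD44+ cells, against 0.47 and 2.71 in CD44- cells. Both CD44+ values lay below both CD44- values, but the arrays within each group stood 2.56 and 2.24 apart (CD44+ and CD44-). The difference was -3.15 ± 0.95 (SE, 95% interval -5.34 to -0.95), with an adjusted p of 0.238 in limma. It passed in 4 of 15 alternatives, among them median scaling (adjusted p = 0.0274) and leaving out CD44- replicate 1 (-4.26, adjusted p = 2.03e-06), and the adjusted p ranged from 6.41e-08 to 0.9998. Without CD44+ replicate 1 the difference was -1.86.

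Ptgs2 encodes cyclooxygenase-2, the inducible form, and is also one of the genes carried by the transgenes. The probe used, printed in 10 spots, had levels of -5.46 and -3.10 in CD44+ cells, against -1.19 and 0.81 in CD44- cells. The first CD44+ value was not well above background, since 0 of its 8 usable spots were, whereas every usable spot was on the other 3 arrays. Ptgs2 therefore entered the test through the CD44- arrays alone. It did not enter the alternative that required all 4 arrays well above background. The linear processed signals were 5.56 and 57.5 in CD44+ cells, against 178 and 926 in CD44- cells.

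The spots of this probe agreed closely where the signal was bright. Their coefficient of variation was 20.2% and 7.20% on the CD44+ arrays, against 5.13% and 2.96% on the CD44- arrays. The difference was -4.09 ± 0.89 (SE, 95% interval -6.13 to -2.04), with an adjusted p of 0.123 in limma. The second Ptgs2 probe, also not well above background on the first CD44+ array, gave -4.28 (adjusted p = 0.0734 over all probes). With dim values held at the lowest signal well above background, a choice made after seeing the data, the difference was -3.07 (adjusted p = 0.160), and with normexp and quantile normalization it was -2.23 (adjusted p = 0.559). The gene passed with median scaling (adjusted p = 0.00270), without CD44- replicate 1 (-5.09, adjusted p = 1.65e-08) and without CD44- replicate 2 (-3.08, adjusted p = 0.00313), and over 14 alternatives the adjusted p ranged from 3.56e-13 to 0.687.

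Ptges encodes the membrane-bound PGE synthase that is often induced together with cyclooxygenase-2, and it is the other enzyme gene of the transgenes. Its levels were -1.18 and -2.11 in CD44+ cells, against -0.85 and -0.16 in CD44- cells. Here the second CD44+ array was the lower one, the reverse of the order seen for both cyclooxygenase genes. The groups did not overlap, and the gap between them was smaller than the spread within either. The difference was -1.14 ± 0.52 (SE, 95% interval -2.35 to 0.06), with an adjusted p of 0.510 in limma, and it passed in 0 of 15 alternatives.

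Ptges2 encodes a second membrane-associated PGE synthase. Its levels were 2.14 and 2.28 in CD44+ cells, against 2.49 and 1.49 in CD44- cells. The CD44+ values lay between the CD44- values. The difference was 0.22 ± 0.50 (SE, 95% interval -0.94 to 1.37), with an adjusted p of 0.906 in limma. The interval holds differences of either direction, so these 4 arrays do not settle the direction. Without CD44- replicate 2 the difference was -0.28.

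Slco2a1 encodes the prostaglandin transporter, which brings PGE2 from outside the cell to the enzymes that oxidise it. Its levels were -1.44 and -1.01 in CD44+ cells, against 2.42 and 3.49 in CD44- cells. The linear processed signals were 89.6 and 245 in CD44+ cells, against 2170 and 5898 in CD44- cells. All 4 values were well above background, the groups did not overlap, and the arrays of a group stood 0.44 and 1.07 apart (CD44+ and CD44-), less than the distance between the groups.

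Slco2a1 was 18.1-fold lower in CD44+ cells (95% interval 7.87-fold to 41.7-fold), a difference of -4.18 ± 0.52 (SE), with an adjusted p of 0.0240 in limma. It ranked at place 37 by p among all genes tested. It passed in 9 of 15 alternatives, with differences from -4.71 to -3.64 and adjusted p from 9.08e-14 to 0.237. The call was lost without CD44+ replicate 1 (-3.96, adjusted p = 0.209), without CD44+ replicate 2 (-4.40, adjusted p = 0.192), and with quantile normalization, normexp, the 75th percentile of detected probes or no filter on dim probes (adjusted p from 0.0925 to 0.237).

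Hpgd encodes 15-hydroxyprostaglandin dehydrogenase, which oxidises PGE2 and so ends its action. Its levels were 2.08 and 2.27 in CD44+ cells, against 3.38 and 1.27 in CD44- cells. The CD44+ arrays lay within 0.19 of each other, while the CD44- arrays stood 2.12 apart on either side of them. The difference was -0.15 ± 0.69 (SE, 95% interval -1.73 to 1.43), with an adjusted p of 0.954 in limma. A second probe had the same order of arrays and a difference of -0.31. Leaving out CD44- replicate 1 turned the sign, to 0.91, and leaving out CD44- replicate 2 gave -1.21, so the direction rested on a single CD44- array.

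The receptor genes gave few usable values. Ptger4 encodes EP4, which raises cyclic AMP. Its levels were 0.83 and 0.69 in CD44+ cells, against 0.51 and -0.01 in CD44- cells. Both CD44+ values were above both CD44- values, with a difference of 0.51 ± 0.46 (SE, 95% interval -0.54 to 1.56) and an adjusted p of 0.792 in limma. Relative to the median difference of all genes it was 0.35.

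Ptger2 encodes EP2, which also raises cyclic AMP, and Ptger3 encodes EP3, which mainly lowers it. Ptger2 cleared the background on CD44- replicate 2 alone, where its level was -2.81, and on neither CD44+ array. One Ptger3 probe did so on the same CD44- array alone, at -5.17, and the other on none of the 4 arrays. Both genes were therefore left out of the test, and a difference in them was not detectable here.

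**Figure D2:**
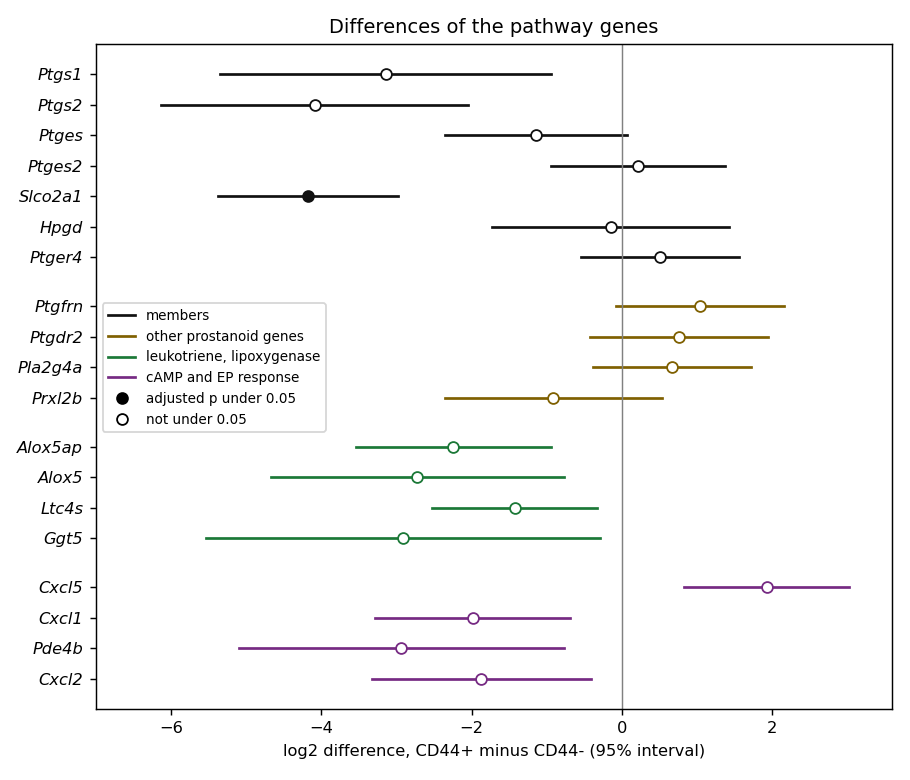
Log2 difference (CD44+ minus CD44-) with its 95% interval from limma for the 7 prostaglandin E2 genes tested and for the 4 genes with the smallest adjusted p in each related list. Filled marks have an adjusted p under 0.05. Slco2a1, at -4.18, is the filled mark.

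The other prostanoid genes, which release arachidonic acid or make, reduce, export or sense prostaglandins and thromboxane, were centred near 0. Some of them also handle PGE2. Ptges3, another PGE synthase gene, differed by 0.51 ± 0.47 (adjusted p = 0.794 in limma). Abcc4, a prostaglandin exporter, differed by 0.58 ± 0.51 (adjusted p = 0.789). Of 20 such genes, 19 had a probe and 14 were tested. In limma 0 passed the adjusted threshold and 0 had an unadjusted p under 0.05. The differences were below 0 for 7 and above 0 for 7, with a median of 0.10. The smallest adjusted p was that of Ptgfrn, a negative regulator of the prostaglandin F receptor, at 1.04 ± 0.48 (adjusted p = 0.519). Ptgdr2, a prostaglandin D2 receptor, differed by 0.76 ± 0.51 (adjusted p = 0.746). Pla2g4a, the cytosolic phospholipase that frees arachidonic acid for cyclooxygenases, differed by 0.67 ± 0.46 (adjusted p = 0.750), and Prxl2b, a prostaglandin F synthase, by -0.91 ± 0.63 (adjusted p = 0.752). The prostacyclin synthase Ptgis, the prostacyclin receptor Ptgir, the prostaglandin F receptor Ptgfr and the haematopoietic prostaglandin D synthase Hpgds were well above background on CD44- replicate 2 alone.

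The leukotriene and lipoxygenase genes use the same fatty acid along another route. Of 17 genes, 12 were tested. In limma 0 passed, and the median difference was -0.56. An unadjusted p under 0.05 was reached by 4, all of them lower in CD44+ cells, against 10.8% of all genes. Alox5ap, the protein that presents arachidonic acid to 5-lipoxygenase, had levels of 0.16 and 1.00 in CD44+ cells, against 2.25 and 3.39 in CD44- cells. Its difference was -2.24 ± 0.56 (adjusted p = 0.161). Alox5, the 5-lipoxygenase itself, had levels of -2.56 and -0.05 in CD44+ cells, against 0.69 and 2.15 in CD44- cells. It differed by -2.72 ± 0.85 (adjusted p = 0.247), and leaving out 1 array gave -3.98 to -1.47. Ltc4s, leukotriene C4 synthase, differed by -1.43 ± 0.48 (adjusted p = 0.291), and Ggt5, a leukotriene C4 hydrolase, by -2.91 ± 1.14 (adjusted p = 0.385), the last clearing the background on only 1 CD44+ array.

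Genes that PGE2 or cyclic AMP is known to induce in various cells formed the last of these lists, with 17 of 20 tested. Here too 0 passed in limma, and the median was -1.05. At an unadjusted p under 0.05, 6 were lower and 1 was higher in CD44+ cells, against 10.8% of all genes. The 1 higher gene was Cxcl5, a neutrophil chemokine, with levels of 3.70 and 3.50 in CD44+ cells, against 1.30 and 2.05 in CD44- cells. Its difference was 1.93 ± 0.48 (adjusted p = 0.160). The related chemokines Cxcl1 and Cxcl2 had the opposite sign, at -1.98 ± 0.56 (adjusted p = 0.203) and -1.87 ± 0.63 (adjusted p = 0.296), and Cxcl2 cleared the background on only 1 CD44+ array. Pde4b, a phosphodiesterase that degrades cyclic AMP and is itself induced by it, differed by -2.93 ± 0.94 (adjusted p = 0.265). Its levels were -2.97 and -1.18 in CD44+ cells, against -0.55 and 2.26 in CD44- cells, and leaving out 1 array gave -4.34 to -1.53.

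In samples of sorted cells, fewer cells of a type and less RNA per cell cannot be told apart. Markers of other cell types moved with Slco2a1, Ptgs2 and Ptgs1. Levels of 12 fibroblast genes, summed on the linear scale, were 12.5 and 49.5 in CD44+ cells, against 81.0 and 487 in CD44- cells. The sum of 10 endothelial genes was 1.58 and 2.20 in CD44+ cells, against 6.80 and 120 in CD44- cells. The lowest sum lay on the first CD44+ array and the highest on the second CD44- array for both lists, the same order as for Ptgs1, Ptgs2 and Slco2a1. That order was not particular to these lists. The tuft cell, smooth muscle and pericyte, and enteroendocrine sums, given below, had it too. Over all genes tested, the first CD44+ and second CD44- arrays were the least alike pair (correlation 0.877, against 0.927 to 0.965 for the other pairs). The share of all genes with that order was not counted.

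Single markers showed how unevenly the arrays of a group held such RNA. The matrix gene Dcn had levels of 1.33 and 3.81 in CD44+ cells, against 4.81 and 7.25 in CD44- cells, and the collagen gene Col1a2 had 1.36 and 3.99, against 4.40 and 7.31. All 12 fibroblast genes had differences below 0, with a median of -3.25. The endothelial gene Vwf had levels of -1.94 and -1.46 in CD44+ cells, against 0.90 and 5.46 in CD44- cells, and Esam had -0.64 and -0.83, against -0.05 and 2.98. Of 8 endothelial genes tested, 7 were below 0, with a median of -4.44, and 2 of the 10 were well above background on CD44- replicate 2 alone. In limma 0 genes of either list passed. At an unadjusted p under 0.05 were 9 fibroblast and 7 endothelial genes, all lower in CD44+ cells, against 10.8% of all genes. Dpt cleared the background on neither CD44+ array, and Pdgfra, Pdgfrb, Col6a1, Thy1, Cdh5 and Emcn on only 1. They entered the test through the CD44- arrays alone, which favours a lower value. The medians include them all, and the counts all but Pdgfrb and Thy1. The part of fibroblasts and endothelial cells in the differences of Slco2a1, Ptgs2 and Ptgs1 was not tested.

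Tuft cells, a chemosensory epithelial type known to express Ptgs1 and Alox5ap, had summed levels of 5.37 and 6.84 in CD44+ cells, against 12.0 and 22.5 in CD44- cells over 9 genes. In limma 1 of the 9 passed, Il25, lower in CD44+ cells; it cleared the background on neither CD44+ array and entered the test through the CD44- arrays alone. The Il25 call was lost in 7 of 14 alternatives, among them leaving out CD44+ replicate 1 (adjusted p = 0.244) or CD44+ replicate 2 (adjusted p = 0.221). The list's brightest genes were Alox5ap, given above, and Avil, at 0.34 ± 0.53 (adjusted p = 0.855), which became -0.25 without CD44- replicate 2. The differences were below 0 for 6 genes and above 0 for 3. Besides Avil, those above 0 were Sucnr1 at 1.58 ± 0.51 (adjusted p = 0.275) and Pou2f3 at 0.54 ± 0.49 (adjusted p = 0.793). The summed smooth muscle and pericyte genes were at 9.64 and 11.6 in CD44+ cells, against 13.8 and 58.0 in CD44- cells. In limma 0 of 9 tested passed, with 3 at an unadjusted p under 0.05, against 10.8% of all genes. Of these 3, Cnn1 cleared the background on only 1 CD44+ array and entered the test through the CD44- arrays alone. The brightest smooth muscle and pericyte genes differed by -0.49 ± 0.45 (Acta2, adjusted p = 0.796, and -2.18 with its probes averaged) and -2.28 ± 0.92 (Tagln, adjusted p = 0.414).

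The enteroendocrine sum was 4.09 and 5.79 in CD44+ cells, against 367 and 784 in CD44- cells. In limma 7 of 10 genes tested were called lower. Among them were the granule protein gene Chga at -7.58 ± 0.90 (adjusted p = 0.0210) and the hormone gene Pyy at -5.16 ± 0.48 (adjusted p = 0.00975). Ghrl and Scg5, also called, each cleared the background on only 1 CD44+ array, so they entered the test through the CD44- arrays alone. The Chga call was lost in 6 of 15 alternatives, including without CD44+ replicate 1 (adjusted p = 0.109) and without CD44+ replicate 2 (adjusted p = 0.0866). The Pyy call was lost in 4 of 15, including without CD44+ replicate 2 (adjusted p = 0.151). The squamous sum was 17.2 and 3.42 in CD44+ cells, against 266 and 441 in CD44- cells, and 4 of 12 were called lower (Krtdap, Sprr2d, Lgals7 and Lypd3). Krtdap cleared the background on neither CD44+ array, so it entered the test through the CD44- arrays alone, and it was called in all 14 alternatives it entered. Without CD44+ replicate 2 the other 3 calls were lost (adjusted p of 0.137 for Sprr2d, 0.158 for Lgals7 and 0.172 for Lypd3), and without CD44+ replicate 1 that of Lgals7 was (adjusted p = 0.150). The squamous list's brightest genes Krt5 and Krt14 differed by -6.27 ± 1.098 (adjusted p = 0.0765) and -6.20 ± 1.07 (adjusted p = 0.0726). The differences of this list were below 0 for 10 genes and above 0 for 2. Among the 10, Trp63 cleared the background on only 1 CD44+ array and Dsg3 on neither. Like Krtdap, they entered the test through the CD44- arrays alone. Those above 0 were Ivl at 1.60 ± 0.45 (adjusted p = 0.199) and Lor at 0.19 ± 0.49 (adjusted p = 0.914). The part of these cell types in the prostaglandin genes was not tested either.

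The summed squamous, leukocyte and mast cell genes did not follow the order of Ptgs1, Ptgs2 and Slco2a1. The mast cell sum was 10.7 and 15.2 in CD44+ cells, against 4.97 and 10.4 in CD44- cells. Of 8 mast cell genes tested, 1 was called higher, the protease gene Mcpt1 at 2.94 ± 0.45 (adjusted p = 0.0475), and the related Mcpt4 differed by 1.97 ± 0.48 (adjusted p = 0.154). The Mcpt1 call was lost in 7 of 15 alternatives, including without CD44+ replicate 1 (adjusted p = 0.227) and without CD44+ replicate 2 (adjusted p = 0.228). Hdc, the histamine-forming enzyme, had the opposite sign at -4.83 ± 0.81 (adjusted p = 0.0628), and Tpsb2, Kit and Fcer1a lay between 0.05 and 0.13. The leukocyte sum was 19.7 and 8.27 in CD44+ cells, against 24.6 and 26.7 in CD44- cells, and Lcp1 differed by 0.47 ± 0.47 (adjusted p = 0.806). Of 13 genes tested, 1 was called higher, Cd53, which cleared the background on neither CD44- array and entered the test through the CD44+ arrays alone. That call was lost in 6 of 14 alternatives, including without CD44+ replicate 1 (adjusted p = 0.201) and without CD44+ replicate 2 (adjusted p = 0.195). Lyz2 had levels of 3.52 and 0.49 in CD44+ cells, against 4.16 and 4.46 in CD44- cells, a difference of -2.30 ± 0.88 (adjusted p = 0.368) that ranged from -3.82 without CD44+ replicate 1 to -0.79 without CD44+ replicate 2.

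The summed gastric epithelial genes were bright on every array. Their sum was 5893 and 3536 in CD44+ cells, against 4483 and 2196 in CD44- cells, and 0 of 11 passed in limma, with 2 at an unadjusted p under 0.05. The mucous cell peptides Tff1 and Tff2 differed by 0.56 ± 0.53 (adjusted p = 0.797) and 0.86 ± 0.56 (adjusted p = 0.731), and Epcam, an epithelial surface marker, by 1.66 ± 0.46 (adjusted p = 0.199). The mucin gene Muc5ac went the other way, with levels of 0.26 and -1.02 in CD44+ cells, against 5.78 and 2.77 in CD44- cells, a difference of -4.65 ± 0.93 (adjusted p = 0.105) that was -2.22 with its probes averaged. Wnt1, the remaining gene of the transgenes, had levels of -1.56 and -2.82 in CD44+ cells, against -2.76 and -2.96 in CD44- cells, a difference of 0.67 ± 0.54 (adjusted p = 0.782). Krt19, whose promoter drives the transgenes and which was added after its values were seen, differed by 0.49 ± 0.63 (adjusted p = 0.836), and by -0.37 without CD44- replicate 2.

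**Figure D3:**
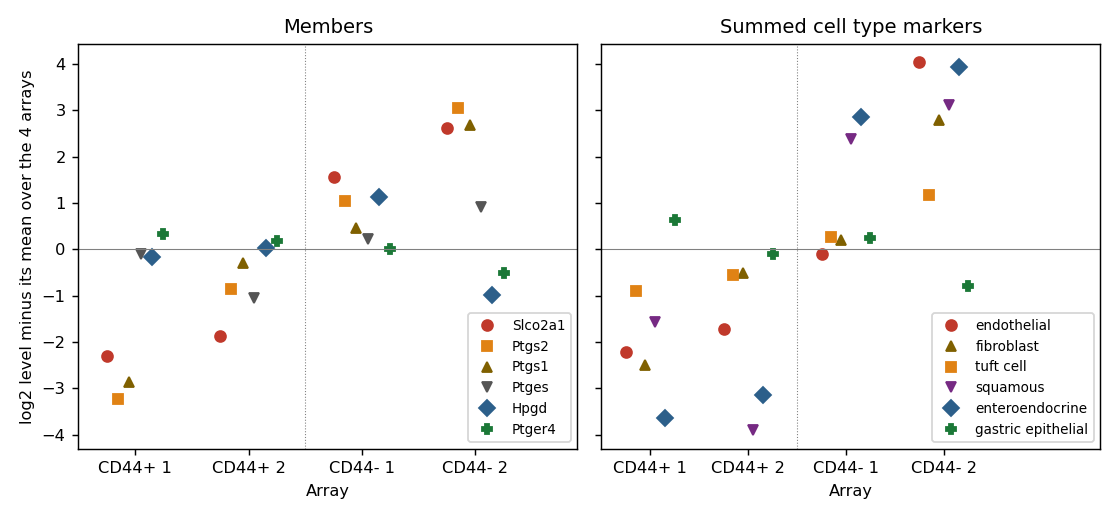
Log2 level minus its mean over the 4 arrays, for 6 prostaglandin E2 genes (left panel) and for the summed levels of 6 marker lists (right panel), with arrays along the horizontal axis. Slco2a1, Ptgs2 and Ptgs1 are lowest on the first CD44+ array and highest on the second CD44- array. So are the fibroblast, endothelial, tuft cell and enteroendocrine sums. Hpgd is highest on the first CD44- array.

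The genes with the most similar profiles were found by the Euclidean distance between array-centred log2 levels over the 4 arrays, among 11658 candidates (11659 for Ptgs2). Candidates were named genes well above background on all 4 arrays, which Ptgs2 itself was not. Genes that were not well above background on the first CD44+ array, as Ptgs2 was not, could therefore not be among its neighbours. With 4 arrays in 2 groups such a distance is a description, and arrays share their overall differences. The nearest to Ptgs1 were the fibroblast list genes Dcn (distance 0.348) and Col1a2 (0.479), followed by the complement gene C1ra (0.525). The nearest to Ptgs2 were Pygl (0.632), Serpinh1 (0.670) and Dcn (0.703). The nearest to Slco2a1 were Maoa (0.511), Emb (0.524) and Hcar2 (0.644), and 0 of the candidates lay within 0.5 of either Slco2a1 or Ptgs2.

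Other members had closer neighbours. Those of Ptges were Cpb2 (distance 0.148), Clip4 (0.169) and the tight junction gene Cldn3 (0.194), with 30 genes within 0.5. Those of Hpgd were Ephx2 (0.130), Gss (0.180) and Sgk2 (0.189), with 70 genes within 0.5, each highest on the first CD44- array and lowest on the second. Ptges2 and Ptger4 spanned 1 log2 unit or less over the arrays and were given no neighbours.

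**Figure D4:**
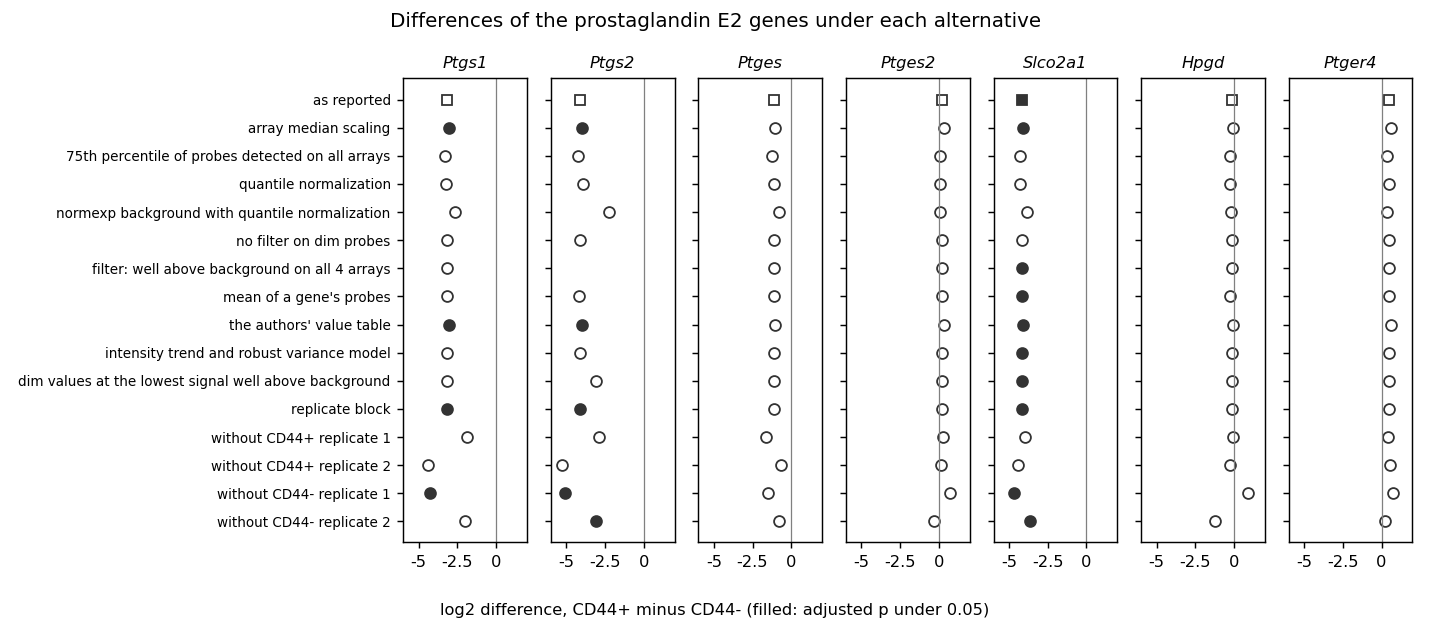
Log2 difference (CD44+ minus CD44-) of each gene tested under the reported setting (squares) and each alternative (circles), filled where the adjusted p was under 0.05. Slco2a1 is filled in 9 of 15 alternatives and stays between -4.71 and -3.64, while Ptges is filled in none.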

How the data were processed

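The deposited data were a scanner table for each array and a value table of all 4. Agilent Feature Extraction 10.1.1.1 wrote the scanner tables per the file headers, whereas the submitters' processing notes name version 9.5. The processed signal and its error are intensities on a linear scale after background subtraction, and the median spot and background signals are raw intensities, per the file headers. Other columns are flags set by the authors' software. The authors' value table holds a ratio, in which every probe was centred on a median of 1, as read from its values. Its column medians were 0.853 and 0.989 for CD44+ and 0.928 and 0.739 for CD44- arrays, and the choice of its array factors is not given. The differences from it were -3.04 for Ptgs1 and -4.07 for Slco2a1, the same to these digits as with median scaling. These alternatives are therefore not independent of each other. Per the labels, 25 ng of RNA per sample was amplified before labelling with Cy3.

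Control and outlier spots (109 to 133 per array) were left out, 0 gene spots were saturated, and spots of 1 probe were averaged, giving 41174 probes. Accessions matched to RefSeq genes (GRCm38.p6) named 24375 probes, and 16799 stayed unnamed. The 75th percentile of each array was subtracted from its log2 processed signals. Genes well above background on both arrays of a group were tested by their brightest probe. Groups followed the sample titles. limma 3.58.1 in R 4.3.3 (lmFit, eBayes, no covariates) was used, with Benjamini-Hochberg adjustment over all 21050 genes, and errors are its standard errors. The fit had 2 residual degrees of freedom and a prior of 6.02. It was tested on simulated data. The number of arrays limits the precision.

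Named genes were all members, Cd44, Wnt1, the 4 genes per related list with the smallest adjusted p, the 2 brightest per cell type list and the 3 nearest profiles. Other genes named were chosen after their values were seen. The members and lists were chosen with earlier results of these data known. The alternatives were other scalings, background correction, filters, probe averaging, the authors' table, a variance trend, a replicate block and leaving out each array.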

Additional observations from a re-analysis of the deposited data

How the results depend on the processing

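Of the 7 genes tested, 5 kept their direction in every alternative they entered, as did 38 of 41 other genes followed through the alternatives. Tpsb2, Kit, Fcer1a, Sucnr1, Pou2f3, Ivl, Lor, Ptges3 and Abcc4 were not followed, and the nearest profiles were not recomputed. Tff1 came to 0.00 with quantile normalization and normexp, and the other exceptions came from leaving out 1 array: Ptges2 (gene and probe) then ranged from -0.28 to 0.72, Krt19 from -0.37 to 1.35 and Avil from -0.25 to 0.93, each lowest without CD44- replicate 2, and Hpgd from -1.21 to 0.91 and its second probe from -1.43 to 0.81, each highest without CD44- replicate 1. The count of genes called (84, 5 higher and 79 lower in CD44+ cells) depended on the setting. It was 749 (121 and 628) with median scaling, 748 (121 and 627) in the authors' deposited table, 242 (58 and 184) with an intensity trend, 24 (0 and 24) with no filter and 42 (38 lower) with dim values held at the lowest signal well above background. It was 6 (0 and 6) with quantile normalization, 3 (0 and 3) with the 75th percentile of detected probes and 1 (0 and 1) with normexp. When each array had to show a probe above background, 18 were higher. Counts at an unadjusted p under 0.05 stand above for the reported setting. Of the 7 genes, 3 were called with median scaling and in the authors' table, and 0 with quantile normalization, normexp, the detected percentile or no filter. The causes were not tested. Leaving out 1 array gave 2 to 1589 genes called, 0 to 191 higher and 2 to 1398 lower, and 0 to 3 of the 7 genes. The prior degrees of freedom were 87.3 without a CD44- array and 5.07 without a CD44+ array, and the lone sample left is assumed to vary like the other group. With the replicate number as a block, 1829 genes were called (336 higher, 1493 lower), 3 of the 7 among them. That limma fit had 1 residual degree of freedom and an infinite prior. It gave the lowest adjusted p stated above for Ptgs1, Ptgs2 and Slco2a1. The labels give no shared source for equal numbers, so the numbers are not taken as a pairing. The 2 pairs' deviations correlated at 0.347, which does not settle whether a source was shared. A block for slide or scan was not run, since all arrays share both. Dim signals limit Ptgs2 on the first CD44+ array, and Ptger2 and Ptger3 on both CD44+ arrays and CD44- replicate 1.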
